A study of Mus musculus with 12 samples.

Results

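The p53 pathway was examined through 39 genes chosen by name: Trp53, which encodes p53, its main regulators, and genes known as p53 targets. All 39 were found among the 54446 genes of the count table, and 36 passed the filter on low counts, as did 14724 genes in all. The cells were NIH3T3, an immortalized line of mouse embryonic fibroblasts, used either as wild type or as ΔN-VEGF. In ΔN-VEGF cells, CRISPR/Cas9 had removed the coding sequence of N-VEGF, an amino-terminal extension of VEGF-A that is made when translation of the transcript begins at an upstream CUG codon, and that is then cut off the protein. Each line was kept in normoxia or in hypoxia (16 h below 0.2% oxygen), with 3 samples per group and 12 in all. Clones were isolated when the deletion was made, and the sources used here do not give which clone or how many clones the sequenced ΔN-VEGF samples came from, so line and clone cannot be told apart. The wild-type cells had not gone through editing and cloning, and no cells that had done so without the deletion were among these groups.

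p53 is a transcription factor that is made and destroyed continuously in unstressed cells, where the ubiquitin ligase Mdm2 marks it for degradation. Stress such as DNA damage stabilizes the protein, which then binds pairs of a short palindromic half-site and raises genes for cell-cycle arrest, apoptosis, DNA repair and metabolic control. Mdm2 is itself such a target and so closes a feedback loop. NIH3T3 cells are known to lack the Ink4a/Arf locus (Cdkn2a), whose Arf product holds Mdm2 back. Several of the genes, among them Cdkn1a, are also raised by factors other than p53, and p53 protein was not measured in these data.

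The half-sites in promoter windows are shown because they are the letters p53 is known to read. RefSeq promoter windows on GRCm38.p6, reaching from 250 bases before to 50 bases after an annotated start, were matched to 32 of the 39 genes. The p53 half-site consensus, which reads the same on both strands and was searched on both, lay in the windows of 10 of the 32 genes (31.2%), against 9.55% of the 27025 genes with a window. A pair of half-sites with at most 13 bases between them was found only for Cdkn1a among the 32, and for 0.074% of all genes. ACGTG, the core of the element bound by hypoxia-inducible factors, was searched on both strands and lay in the windows of 12 of the 32 genes (37.5%), against 21.8% of all genes. In the lines below the half-site is in capitals. Both Cdkn1a sequences come from 1 window and make up the pair, that of Mdm2, the feedback gene, and those of Polk, Sesn1 and Ppm1d belong to genes whose counts changed in hypoxia, and that of Trp53 is from its own promoter.
Cdkn1a, chr17:29090896-29090925, plus strand: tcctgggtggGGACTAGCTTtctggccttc
Cdkn1a, chr17:29090918-29090947, plus strand: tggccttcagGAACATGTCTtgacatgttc
Mdm2, chr10:117710925-117710954, minus strand: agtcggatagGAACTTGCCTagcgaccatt
Polk, chr13:96519399-96519428, minus strand: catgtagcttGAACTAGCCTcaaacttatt
Sesn1, chr10:41887256-41887285, plus strand: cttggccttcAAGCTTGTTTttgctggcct
Ppm1d, chr11:85311112-85311141, plus strand: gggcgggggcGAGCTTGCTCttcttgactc
Trp53, chr11:69580274-69580303, plus strand: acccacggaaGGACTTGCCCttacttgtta
The Sesn1 and Polk sequences lie at alternative starts, 77.3 and 23.2 kb inside the genes as the count table places them, while the other sequences lie just before the gene's first base. Such a match is a description of the letters, and binding was not measured. The 6 genes shown did not move one way in hypoxia: Cdkn1a, Mdm2 and Polk rose, Sesn1 and Ppm1d fell, and Trp53 did not pass the test. The other genes with a half-site, not shown, were Abhd4, Aen, Ei24 and Ccng1. Of these Abhd4 fell in wild type alone, Aen and Ei24 fell in ΔN-VEGF cells alone, and Ccng1 was called in neither line.

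Samples had 30519052 to 43056690 counts on genes. Levels are given as CPM, counts scaled to the TMM-adjusted library size, and as CPM per kilobase of exon where genes are compared with each other. Of the markers of other cell types, Epcam was at 0 in every group. The summed level of 4 epithelial markers was at most 2.42 CPM and that of 3 leukocyte markers at most 6.80, while 8 fibroblast markers summed to 17200 to 43700 CPM. 3 endothelial markers summed to 1.81 to 4.23 CPM in normoxia, 5.91 to 8.05 in hypoxic wild-type cells and 20.3 to 25.1 in hypoxic ΔN-VEGF cells, carried by Cdh5, with a mean of 22.2 CPM in the last group beside 0.596 for Pecam1 and 0.262 for Tek, and their part in the results was not tested. All 10 of a list of well-known oxygen-regulated genes rose in hypoxia in both lines, with median log2 fold changes of 3.21 (wild type) and 3.75 (ΔN-VEGF). Of all tested genes, 15.8% rose in both lines by edgeR's test at an adjusted p below 0.05. The count of the whole Vegfa gene does not check the deletion, since most of the transcript remains in ΔN-VEGF cells.

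The second wild-type normoxia sample stood apart. Over all tested genes its log2 CPM correlated with the other wild-type normoxia samples at 0.956 and 0.957, while those correlated with each other at 0.996. Of the 36 genes, 13 (36.1%) lay at least 1 log2 unit from the mean of replicates 1 and 3 in that sample, against 26.9% of all tested genes. The second ΔN-VEGF normoxia sample departed the same way in all 13 of these genes, by smaller amounts, and in 30 of the 36 (83.3%, against 72.4% of all tested genes). Aen, a p53-induced nuclease, had 37.6, 149 and 37.3 CPM in wild-type normoxia and 79.0, 150 and 80.5 in ΔN-VEGF normoxia. Trp53inp1, a p53-induced regulator of stress and autophagy, had 8.67, 1.23 and 11 CPM in wild type and 6.18, 3.01 and 6.96 in ΔN-VEGF cells. The median SD of log2 CPM over the 36 genes was 0.36 and 0.23 in the normoxia groups of wild type and ΔN-VEGF, and 0.09 and 0.07 in their hypoxia groups. Counts of calls by adjusted p alone are therefore given with and without the second wild-type normoxia sample.

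**Figure D1:**
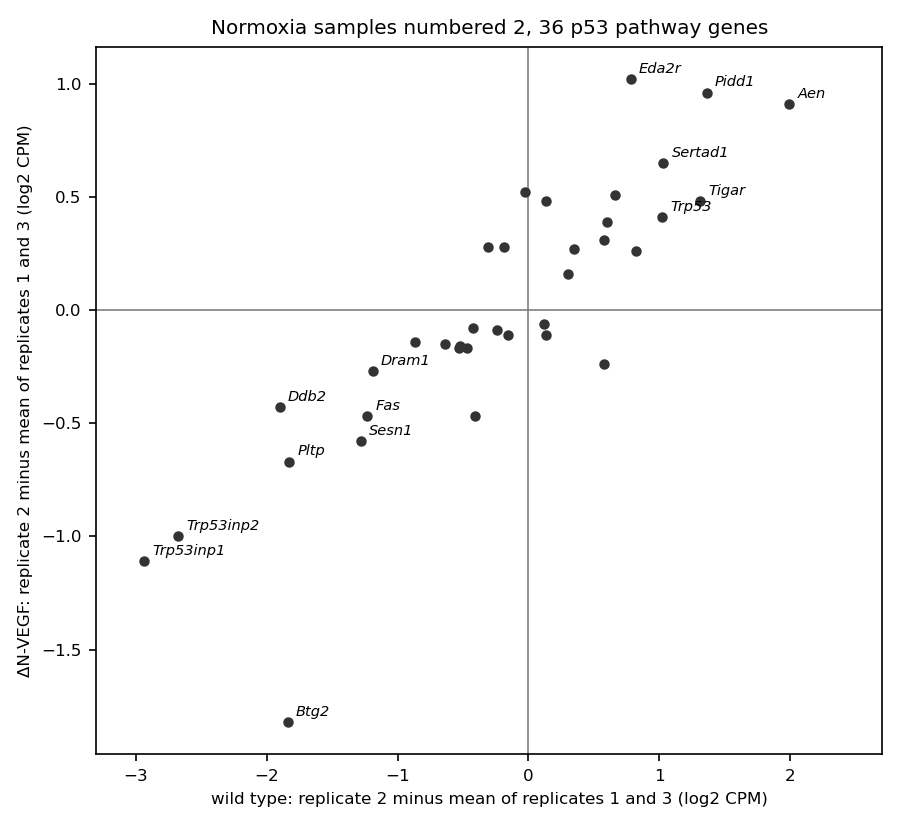
Departure of the normoxia sample numbered 2 from the mean of replicates 1 and 3, in log2 CPM, for wild type (horizontal axis) and ΔN-VEGF (vertical axis). Each point is 1 of the 36 tested p53 pathway genes, and 30 of them have the same sign in both lines.

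**Figure D2:**
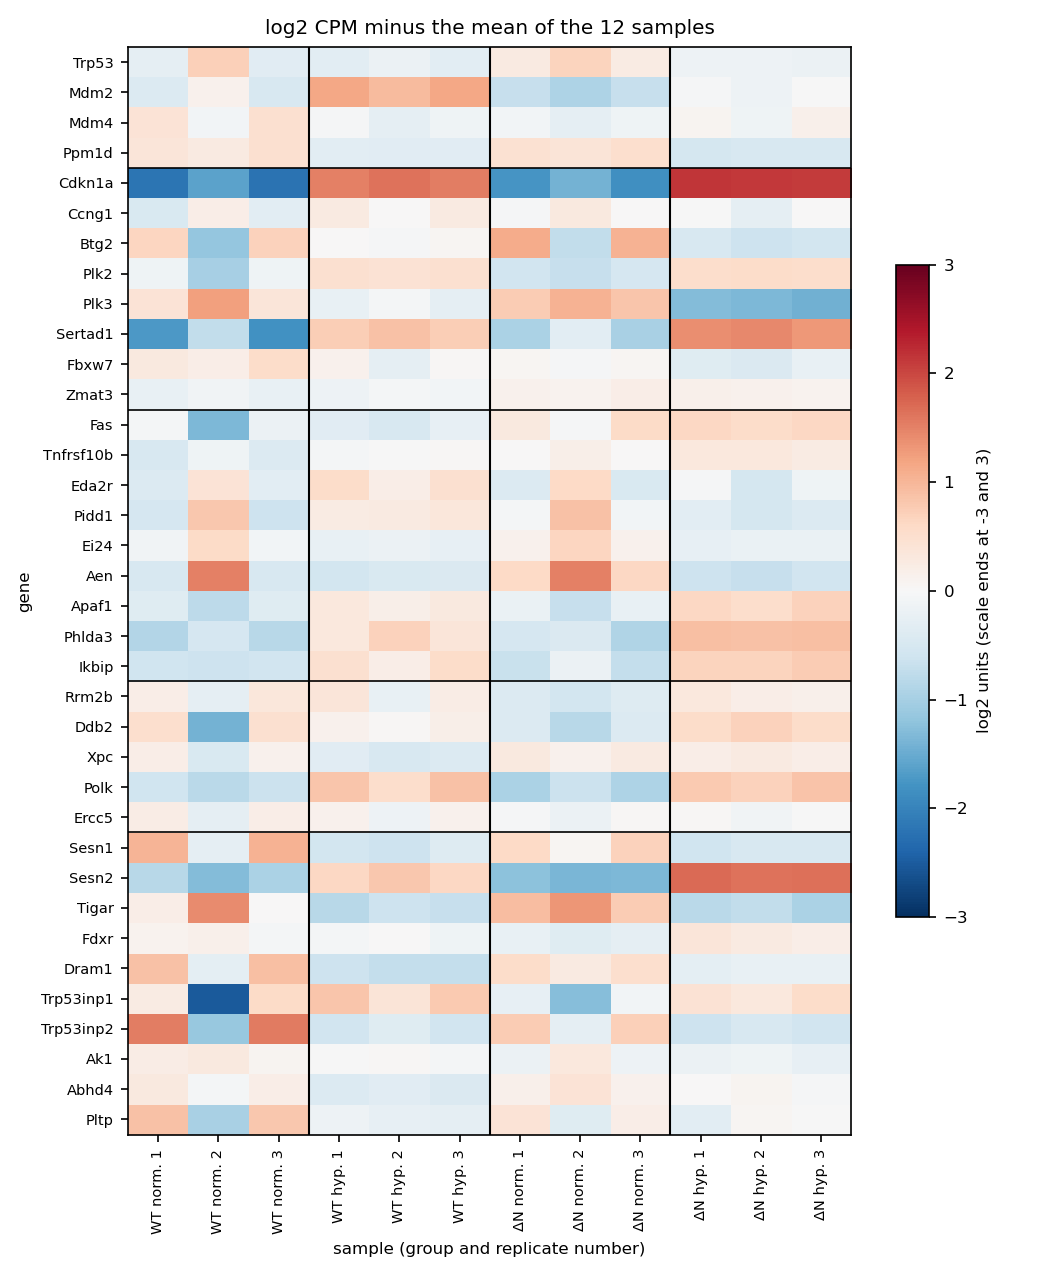
Log2 CPM of the 36 tested genes (vertical, with lines between the 5 roles) in the 12 samples (horizontal, with lines between the 4 groups), each gene minus its mean over the 12 samples. Red is above the mean and blue below it, and the second wild-type normoxia column differs from its neighbours in genes such as Aen, Ddb2 and Trp53inp1.

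The first question was how hypoxia changed the p53 genes in wild-type cells. Of the 36 tested, 10 rose and 9 fell by edgeR's quasi-likelihood test at a Benjamini-Hochberg adjusted p below 0.05, where 18.2% of all tested genes rose and 18.3% fell. In either direction this was 52.8% of the 36 genes and 36.5% of all tested genes. With a fold change of at least 2 as well, 7 rose and 4 fell, against backgrounds of 9.17% and 6.53%. The median log2 fold change was -0.01 for the 36 genes and -0.07 for all tested genes. Without the second wild-type normoxia sample, 13 rose and 12 fell, with backgrounds of 27.1% and 26.9%. With libraries scaled by total counts alone, which moved the median of all tested genes to -0.30, 8 rose and 15 fell (12.8% and 32.7% of all). Bulk counts cannot tell a change in RNA per cell from a change in the share of cells that express a gene.

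In ΔN-VEGF cells, hypoxia raised 12 of the 36 genes and lowered 8 (same test), and it raised 26.9% and lowered 26.4% of all tested genes. The share in either direction, 55.6%, was close to the 53.3% of all tested genes. With a fold change of at least 2, 8 rose and 3 fell, against 14.6% and 12.7%. The median log2 fold change was 0.00 for the 36 genes and -0.01 for all. Leaving out the second wild-type normoxia sample, which is in neither group compared here but has a part in the filter and the fit, gave 14 rises and 13 falls (32.8% and 34.3% of all genes). Scaling by total counts alone gave 8 rises and 16 falls (15.3% and 44.5% of all), with the median of all tested genes at -0.41.

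Side by side, 9 genes rose in both lines (Apaf1, Cdkn1a, Ikbip, Mdm2, Phlda3, Plk2, Polk, Sertad1 and Sesn2) and 6 fell in both (Dram1, Fbxw7, Plk3, Ppm1d, Sesn1 and Tigar). These were 25.0% and 16.7% of the 36, against 15.8% and 14.5% of all tested genes. Calls in wild type alone were a rise of Tnfrsf10b and falls of Abhd4, Mdm4 and Trp53inp2. Calls in ΔN-VEGF alone were rises of Ddb2, Fdxr and Rrm2b and falls of Aen and Ei24. A call in 1 line alone does not show that the lines differ, which the interaction tests further on. The wild-type calls of Mdm4, Fbxw7, Tnfrsf10b and Trp53inp2 were each lost without some single samples, hypoxic wild-type ones among them, as were the ΔN-VEGF calls of Fbxw7, Ddb2 and Dram1 without single ΔN-VEGF samples. No gene was called in opposite directions (0.183% of all tested genes were), and 12 were called in neither line (33.3%, against 40.6% of all). Leaving out the second wild-type normoxia sample, 10 rose and 8 fell in both lines (19.0% and 17% of all genes), 4 were called in neither (20.2% of all) and 2 in opposite directions (5.22% of all). Pidd1 had 0.86 (adjusted p 0.011) in the wild-type line and -0.76 (0.0090) in the ΔN-VEGF line, with an interaction of -1.62 (adjusted p 0.0019). Ddb2 had -0.37 (0.037) and 1.14 (4.8e-06), with an interaction of 1.52 (adjusted p 5.1e-05). That fit keeps the second ΔN-VEGF normoxia sample, which departed the same way in both genes. Without both normoxia samples numbered 2, Pidd1 had 0.86 and -0.36 (adjusted p 4.8e-07 and 0.0064), with an interaction of -1.22 (1.2e-06). Ddb2 then had -0.37 and 1.01 (0.0043 and 1.2e-07), with an interaction of 1.38 (3.3e-07). The samples of hypoxia and normoxia did not overlap for 19 of the 36 genes in wild type (52.8%, against 45.0% of all tested genes) and for 26 in ΔN-VEGF cells (72.2%, against 70.5%).

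**Figure D3:**
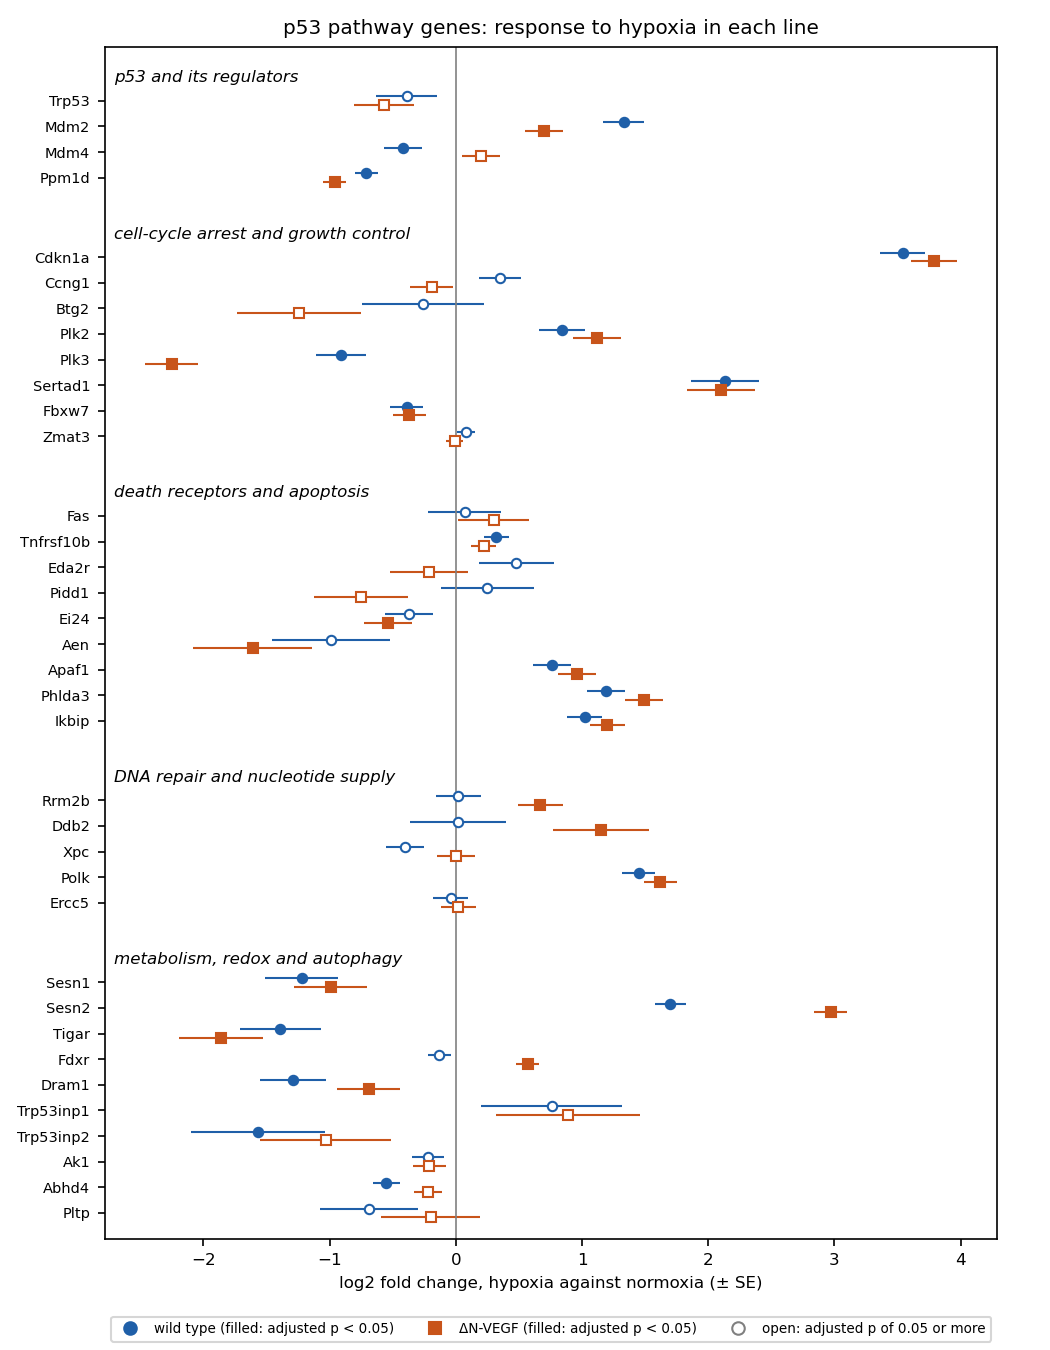
Log2 fold change of hypoxia against normoxia (horizontal axis, ± SE) for the 36 tested genes, ordered by role, in wild type (blue circles) and ΔN-VEGF (orange squares), with filled symbols for an adjusted p below 0.05. Cdkn1a has the highest value in both lines (3.54 and 3.79), and Plk3 has the lowest in ΔN-VEGF cells (-2.25).

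Among p53 and its regulators, Mdm2 rose in both lines, Ppm1d fell in both, and Trp53 did not pass the test in either. Of the 4 tested, 75.0% were called in the wild-type line and 50% in the ΔN-VEGF one, where 36.5% and 53.3% of all tested genes were, as for the roles that follow. Leaving out the second wild-type normoxia sample, 1 rose and 2 fell in each line (75.0%), where 54.0% and 67.1% of all tested genes were called, again as for the roles that follow. Trp53 had 153, 303 and 145 CPM in wild-type normoxia, 148, 164 and 148 in wild-type hypoxia, 222, 293 and 220 in ΔN-VEGF normoxia, and 165, 166 and 163 in ΔN-VEGF hypoxia. The second sample was the highest of both normoxia groups, and in ΔN-VEGF cells the 3 hypoxia samples lay below all normoxia samples. The log2 fold change of Trp53 was -0.39 in wild type (SE 0.24, adjusted p 0.23) and -0.57 in ΔN-VEGF cells (SE 0.24, adjusted p 0.063). Once that wild-type sample was left out these were 0.04 (adjusted p 0.78) and -0.58 (adjusted p 0.00017, same test). The ΔN-VEGF fall was called in 8 of the 20 alternatives, among them the fits without any 1 of the wild-type normoxia samples. The wild-type fall was called in 1 of the 20 (adjusted p 0.026). Over the alternatives the values ranged from -0.58 to 0.04 in wild type and from -0.97 to -0.43 in ΔN-VEGF cells. Per kilobase of exon, Trp53 had the highest level of the 39 genes in both normoxia groups, at 49.6 CPM per kb in wild type and 60.5 in the ΔN-VEGF line.

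Mdm2, the ligase that limits p53, had 101, 148 and 96.7 CPM in wild-type normoxia and 304, 261 and 303 in hypoxia. The ΔN-VEGF samples had 82.9, 70.7 and 83.6 CPM in normoxia and 131, 121 and 133 in hypoxia. Hypoxia and normoxia did not overlap in either line, and hypoxic ΔN-VEGF cells lay below the second wild-type normoxia sample, the one that stood apart, and above the other wild-type normoxia samples. The rise was 2.52-fold in wild type (log2 1.33, SE 0.16, adjusted p 6.7e-05) and 1.62-fold in ΔN-VEGF cells (log2 0.70, SE 0.15, adjusted p 0.0029). The latter was not called with total counts alone (log2 0.29, adjusted p 0.068).

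Ppm1d, which encodes the phosphatase Wip1 that switches off p53 signalling, had 17.3, 16.2 and 19.0 CPM in wild-type normoxia and 10.9, 10.7 and 10.6 in hypoxia. In ΔN-VEGF cells it had 18.6, 17.6 and 19.2 CPM in normoxia and 9.30, 9.65 and 9.57 in hypoxia. All hypoxia samples were below all normoxia samples, with log2 fold changes of -0.71 (SE 0.09, adjusted p 0.00016) and -0.96 (SE 0.09, adjusted p 1.1e-05). Mdm4, an Mdm2-related inhibitor of p53, had a log2 fold change of -0.42 in wild type (adjusted p 0.041), a fall, and of 0.20 in ΔN-VEGF cells (adjusted p 0.27, same test). Cdkn2a had 0 counts in all 12 samples and was not tested.

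Of the genes for cell-cycle arrest and growth control, 8 of 9 were tested, and in each line 3 rose and 2 fell (62.5%, against 36.5% and 53.3% of all tested genes). Leaving out that sample, 4 rose and 2 fell in the wild-type line and 3 rose and 3 fell in the other (75.0%, against 54.0% and 67.1%). Cdkn1a encodes p21, the inhibitor of cyclin-dependent kinases through which p53 halts the cell cycle. It had 34.8, 52.2 and 33.9 CPM in wild-type normoxia and 455, 490 and 459 in hypoxia. The ΔN-VEGF samples had 46.1, 59.2 and 44.0 CPM in normoxia and 698, 693 and 674 in hypoxia. Every hypoxia sample was several times above every normoxia sample. The rises were 11.6-fold (log2 3.54, SE 0.18, adjusted p 1.8e-07) and 13.8-fold (log2 3.79, SE 0.18, adjusted p 5.5e-08). In hypoxia Cdkn1a had the highest level per kilobase of the 39 genes, 132 CPM per kb in wild type and 194 in the ΔN-VEGF line, from 11.4 and 14.0 in normoxia. An annotated gene of unknown status on the other strand overlaps its exons, and counts of such pairs are uncertain because the strand setting is not stated.

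Plk3, a kinase of the stress response, had 23.3, 40.7 and 22.6 CPM in wild-type normoxia and 14.8, 16.7 and 14.4 in hypoxia. In ΔN-VEGF cells it had 29.4, 36.1 and 31.0 CPM in normoxia and 7.05, 6.82 and 6.38 in hypoxia. The groups did not overlap in either line, and the lowest level was that of hypoxic ΔN-VEGF cells. The log2 fold changes were -0.91 (SE 0.20, adjusted p 0.0046) and -2.25 (SE 0.21, adjusted p 7.5e-06). The wild-type value was -0.58 (adjusted p 0.00043) without the second normoxia sample. Its exons overlap Tctex1d4 on the other strand. Sertad1, a regulator of E2F and cyclin-dependent kinase activity, rose by 2.13 and 2.1 in the wild-type and ΔN-VEGF lines (adjusted p 0.00014 and 8.2e-05). Plk2, a kinase related to Plk3, rose by 0.84 and 1.12 (adjusted p 0.0045 and 0.00045), though the wild-type rise was not called with total counts alone (0.58, adjusted p 0.055). Fbxw7, which directs cyclin E to degradation, fell (-0.39 and -0.37, adjusted p 0.042 and 0.035). Ccng1, Btg2 and Zmat3 were not called, and their log2 fold changes ranged from -1.24 (Btg2 in ΔN-VEGF cells) to 0.35 (Ccng1 in wild type). In the fit lacking the second wild-type normoxia sample, Ccng1 had 0.58 in wild type (adjusted p 0.0014) and Btg2 -1.25 in ΔN-VEGF cells (adjusted p 0.0050). That fall of Btg2 was called in 8 of the 20 alternatives. Gdf15, a secreted stress cytokine, reached at most 0.171 CPM and was not tested.

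**Figure D4:**
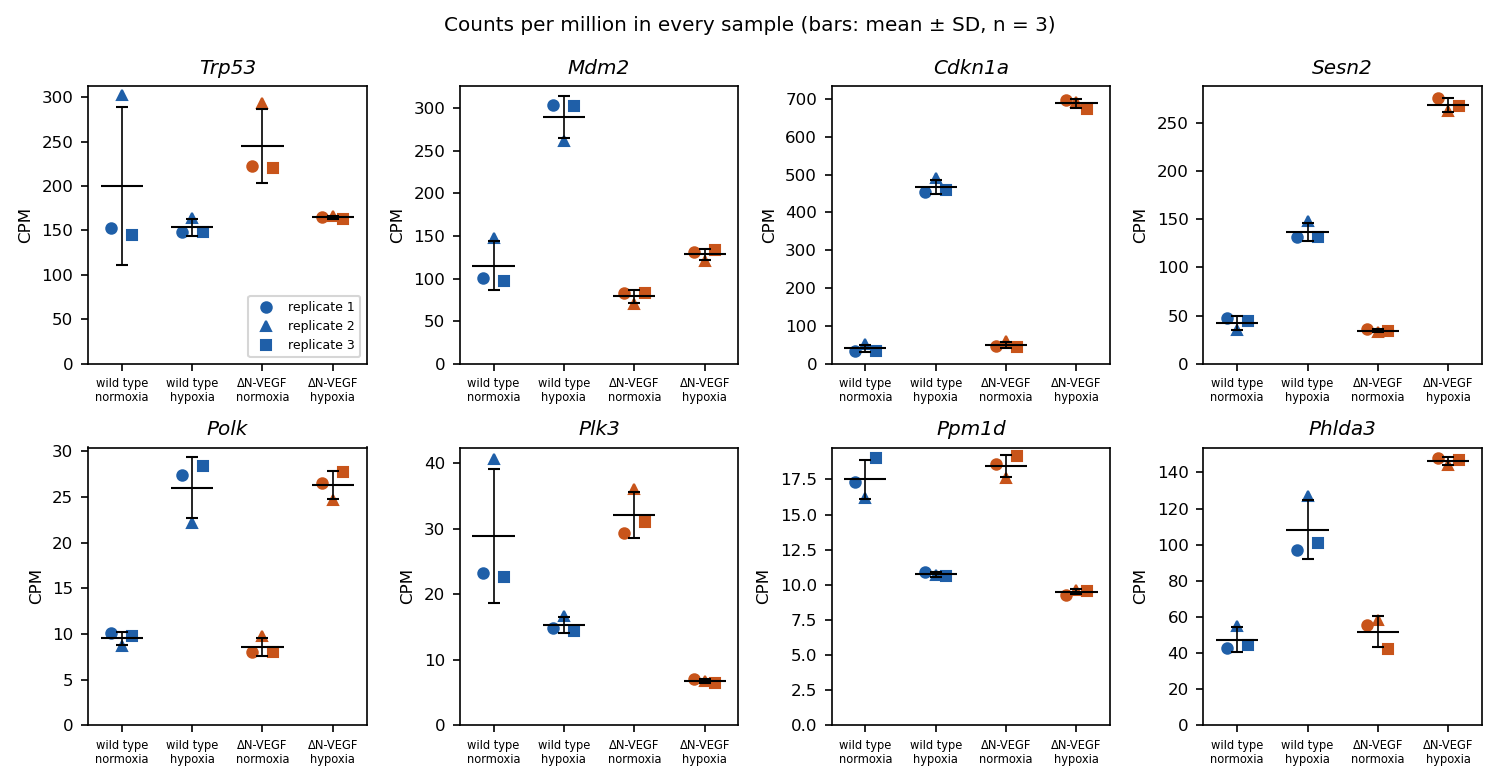
CPM (vertical axis, from 0) of 8 genes in every sample of the 4 groups (horizontal axis), with a marker shape for each replicate number and black bars for the mean ± SD (n = 3). Cdkn1a, Sesn2, Polk and Phlda3 are higher in every hypoxia sample than in any normoxia sample, and Ppm1d and Plk3 are lower.

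Of the death receptors and apoptosis genes, 9 of 10 were tested. The wild-type line had 4 rises and 0 falls (44.4%, against 36.5% of all tested genes), and the ΔN-VEGF line 3 rises and 2 falls (55.6%, close to the 53.3% of all). Leaving out the second wild-type normoxia sample, these were 6 rises and 0 falls (66.7%, against 54.0%), and 4 rises and 3 falls (77.8%, against 67.1%). Phlda3, a p53-induced inhibitor of Akt, had 42.5, 55.2 and 44.3 CPM in wild-type normoxia and 97.2, 127 and 101 in hypoxia, and in ΔN-VEGF cells 55.4, 58.2 and 42.0 in normoxia and 148, 144 and 147 in hypoxia. The groups did not overlap, and the log2 fold changes were 1.19 (SE 0.15, adjusted p 0.00012) and 1.49 (SE 0.15, adjusted p 1.4e-05). Apaf1, the core of the apoptosome, rose by 0.76 and 0.96 (adjusted p 0.0022 and 0.00027). Ikbip, its neighbour on chromosome 10, rose by 1.02 and 1.2 (adjusted p 0.00025 and 4.4e-05). Tnfrsf10b, a death receptor for TRAIL, rose by 0.32 in wild type (adjusted p 0.030), and its value in ΔN-VEGF cells was 0.22 (adjusted p 0.094). With total counts alone the former was 0.10 (adjusted p 0.30). The falls called in ΔN-VEGF cells were those of Aen (-1.61, adjusted p 0.014) and of Ei24, a p53-induced gene of the endoplasmic reticulum (-0.54, adjusted p 0.030). Without the second ΔN-VEGF normoxia sample neither fall was called (-1.24 with adjusted p 0.064 for Aen, -0.35 with 0.13 for Ei24), and that of Ei24 was also not called without any 1 of the hypoxic ΔN-VEGF samples. An antisense gene overlaps the exons of Ei24, which leaves its counts uncertain. Fas, Eda2r and Pidd1, which encode 2 death receptors and an adaptor of caspase activation, were called in neither line. In the fit lacking the second wild-type normoxia sample, Eda2r had 0.80 (adjusted p 0.025, from 0.48) and Pidd1 0.86 (adjusted p 0.011, from 0.25) in wild type, and Tnfrsf10b had 0.21 (adjusted p 0.017) in ΔN-VEGF cells, where Pidd1 was also called. Perp, a gene of cell junctions, had 0 counts in all samples.

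All 5 genes for DNA repair and nucleotide supply were tested. There were 1 rise and 0 falls in wild type (20.0%, against 36.5% of all tested genes), and 3 rises and 0 falls in the ΔN-VEGF line (60.0%, against 53.3%). Once the second wild-type normoxia sample was left out, there were 1 rise and 2 falls (60.0%, against 54.0%), and 3 rises and 0 falls (60.0%, against 67.1%). Polk, a DNA polymerase that copies past damaged bases, had 10.1, 8.71 and 9.79 CPM in wild-type normoxia and 27.4, 22.2 and 28.4 in hypoxia. In ΔN-VEGF cells it had 7.97, 9.74 and 8.04 CPM in normoxia and 26.5, 24.7 and 27.7 in hypoxia. The ranges were alike in both lines and far apart between oxygen levels, with log2 fold changes of 1.45 (SE 0.13, adjusted p 8.7e-06) and 1.62 (SE 0.13, adjusted p 2.1e-06). Rrm2b, the p53-induced subunit of ribonucleotide reductase, had log2 fold changes of 0.02 (adjusted p 0.94) in wild type and 0.67 (adjusted p 0.0085) in ΔN-VEGF cells, the latter a rise. Ddb2, a sensor of ultraviolet damage, likewise had 0.02 (adjusted p 0.97) and 1.15 (adjusted p 0.026). Neither rise was called with total counts alone (0.27 with adjusted p 0.31 for Rrm2b, 0.75 with 0.15 for Ddb2). Without the second wild-type normoxia sample, which had 1.30 CPM of Ddb2 where the other wild-type normoxia samples had 5.04 and 4.97, its wild-type value turned to -0.37 (adjusted p 0.037). The nucleotide excision repair genes Xpc and Ercc5 were not called, though Xpc was in wild type (-0.58, adjusted p 3.5e-05) in that fit. An antisense gene overlaps the exons of Rrm2b, and Acp2 overlaps those of Ddb2 on the other strand, so both counts are uncertain.

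The 10 genes of metabolism, redox control and autophagy were all tested. In wild type 1 rose and 5 fell (60.0%, against 36.5% of all tested genes), and in ΔN-VEGF cells 2 rose and 3 fell (50%, against 53.3%). Once the second wild-type normoxia sample was left out, these were 1 and 6 (70.0%, against 54.0%), and 3 and 5 (80%, against 67.1%). Sesn2, a sestrin that restrains mTORC1 and oxidative stress, had 47.8, 34.5 and 44.5 CPM in wild-type normoxia and 131, 148 and 132 in hypoxia. In ΔN-VEGF cells it had 36.2, 33.1 and 33.6 CPM in normoxia and 276, 262 and 267 in hypoxia. In hypoxia the lines did not overlap, and in normoxia they did. The log2 fold changes were 1.70 (SE 0.12, adjusted p 1.7e-06) and 2.97 (SE 0.13, adjusted p 2.4e-08). Sesn1, its p53-regulated relative, fell in both lines (-1.22 and -0.99, adjusted p 0.0065 and 0.013). Tigar, which lowers glycolytic flux, did too (-1.39 and -1.86, adjusted p 0.0060 and 0.00066), as did Dram1, a lysosomal protein that promotes autophagy (-1.29 and -0.69, adjusted p 0.0025 and 0.039). The value of Tigar in wild type was -0.81 (adjusted p 0.00092) without the second wild-type normoxia sample. Fdxr, the mitochondrial ferredoxin reductase, had -0.13 (adjusted p 0.28) in wild type and rose in the ΔN-VEGF line, by 0.57 (adjusted p 0.00030), which total counts alone gave as 0.17 (adjusted p 0.13). Abhd4, a lipid hydrolase, and Trp53inp2, an autophagy regulator, fell in wild type (-0.55 and -1.57, adjusted p 0.0030 and 0.037). Trp53inp1, Ak1, an adenylate kinase, and Pltp, a phospholipid transfer protein, were called in neither line. With the second wild-type normoxia sample left out, Pltp was called in wild type (-1.08, adjusted p 0.00036, from -0.69), and Trp53inp1 (0.88, adjusted p 0.0053), Trp53inp2 (-1.04, adjusted p 0.00046) and Abhd4 (-0.23, adjusted p 0.028) in ΔN-VEGF cells. Genes on the other strand overlap the exons of Tigar and Pltp (Ctsa), whose counts are uncertain for that reason.

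The next question was how ΔN-VEGF cells differed from wild-type cells at the same oxygen level. In normoxia 2 of the 36 genes were higher in ΔN-VEGF cells and 1 was lower, and 1.39% and 2.97% of all tested genes were (edgeR's quasi-likelihood test, adjusted p below 0.05). In either direction 8.33% of the 36 were called, against 4.36% of all tested genes, and 0 in either direction at a fold change of at least 2 (0.618% higher and 1.55% lower of all). The samples did not overlap for 8 of the 36 (22.2%, against 16.3% of all tested genes). Zmat3, a p53-induced RNA-binding protein, had 65.3, 70.8 and 65.3 CPM in wild type and 83.5, 81.9 and 86.6 in ΔN-VEGF cells (log2 0.32, SE 0.07, adjusted p 0.036). Tnfrsf10b had 25.0, 31.5 and 26.2 CPM in wild type and 35.3, 39.5 and 35.2 in ΔN-VEGF cells (log2 0.41, SE 0.10, adjusted p 0.048). Fdxr had 43.5, 45.1 and 39.2 CPM in wild type and 34.4, 31.3 and 33.3 in ΔN-VEGF cells (log2 -0.37, SE 0.09, adjusted p 0.045). For these 3 genes the lines did not overlap. In hypoxia Zmat3 had 68.8, 73.0 and 71.5 CPM in the wild-type samples and 84.9, 84.0 and 81.9 in the ΔN-VEGF ones, and Tnfrsf10b had 33.2, 34.5 and 35.6 CPM and 43.5, 43.3 and 41.1, again with no overlap of the lines. Mdm2 was lower in every ΔN-VEGF sample than in any wild-type sample, with -0.54 (SE 0.15, adjusted p 0.075).

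These normoxia calls turned on the samples and the fit. With replicate number as a block on the 6 normoxia samples, where same-numbered samples deviated together, 0 of the 36 genes were called in either direction, where 0.00718% of all tested genes were higher and 0.0% lower, and Zmat3, Tnfrsf10b and Fdxr had adjusted p of 0.25, 0.21 and 0.25. Without the second wild-type normoxia sample, 12 genes were higher and 14 lower in ΔN-VEGF cells, with backgrounds of 25.7% and 23.2%. In that fit Mdm2 had -0.31 (adjusted p 0.015) and Cdkn1a 0.55 (adjusted p 0.0013). Trp53 had 0.73 (adjusted p 0.00024) and Aen 1.47 (adjusted p 0.00019). That fit keeps the second ΔN-VEGF normoxia sample, which departed the same way in 30 of the 36 genes, though not in Mdm2. Without both normoxia samples numbered 2, Mdm2 had -0.23 (adjusted p 0.011, same test) and Cdkn1a 0.40 (2.5e-05). Trp53 then had 0.58 (1.8e-07) and Aen 1.1 (4.2e-11).

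In hypoxia 7 of the 36 genes were higher in ΔN-VEGF cells and 2 were lower, against 10.8% and 9.36% of all tested genes, and the median log2 difference was 0.07 (all tested genes -0.01). In either direction 25.0% of the 36 were called, against 20.1% of all tested genes. With a fold change of at least 2, 0 were higher and 2 lower, against 2.87% and 3.94%. The lines did not overlap for 24 of the 36 genes (66.7%, against 59.8% of all tested genes). The 7 higher genes were Cdkn1a, Zmat3, Fas, Xpc, Sesn2, Fdxr and Abhd4, and the 2 lower ones were Mdm2 and Plk3. Mdm2 was 2.26-fold lower (log2 -1.17, SE 0.15, adjusted p 0.00077) and Plk3 changed by -1.18 on the log2 scale (SE 0.21, adjusted p 0.0032). Sesn2 was 0.97 higher on the log2 scale (SE 0.12, adjusted p 0.00049). Xpc, the damage sensor of nucleotide excision repair, had 26.4, 24.2 and 25.6 CPM in wild type and 39.1, 40.5 and 39.1 in ΔN-VEGF cells (log2 0.64, SE 0.15, adjusted p 0.013). In normoxia the second wild-type sample of Xpc was the lowest, with 24.5 CPM beside 39.1 and 36.9, and ΔN-VEGF cells had 41.1, 36.7 and 40.5. The other differences were 0.56 for Cdkn1a (adjusted p 0.035), 0.97 for Fas (0.039), 0.43 for Abhd4 (0.023), 0.34 for Fdxr (0.023) and 0.23 for Zmat3 (adjusted p 0.047). Those 5 were each lost without the first hypoxic wild-type sample, among others, while Mdm2, Plk3 and Sesn2 were called under every alternative and Xpc under all but total counts alone. Without the second wild-type normoxia sample, 13 were higher and 5 lower (21.2% and 21.2% of all genes). With total counts alone, where the median of all tested genes lay at -0.23, 1 was higher and 7 were lower (4.57% and 22.2% of all).

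**Figure D5:**
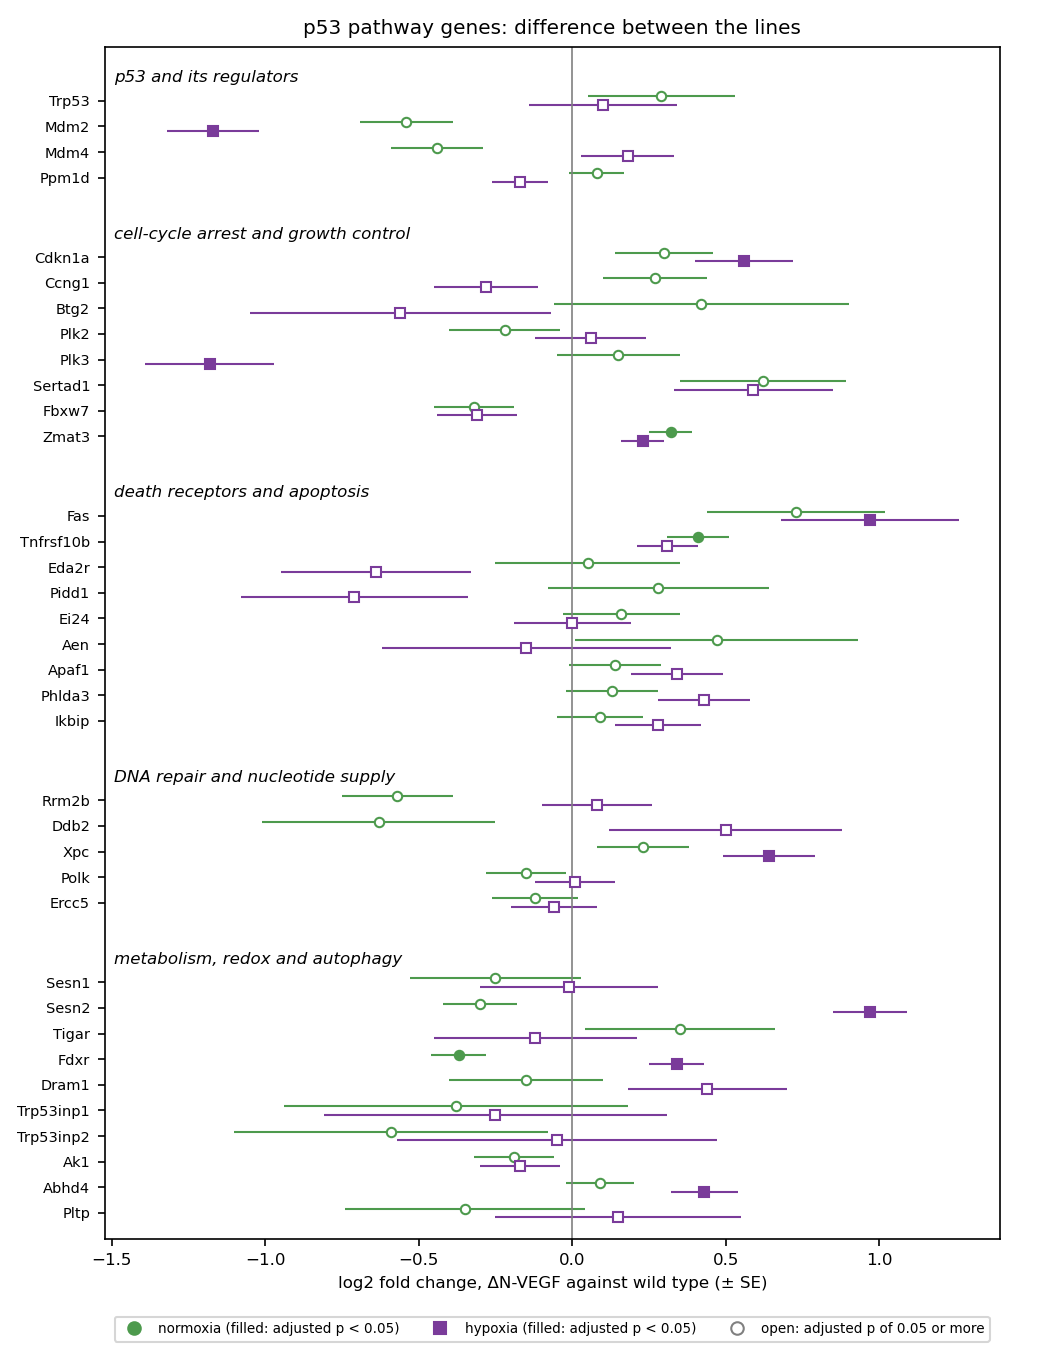
Log2 fold change of ΔN-VEGF against wild type (horizontal axis, ± SE) for the 36 tested genes, ordered by role, in normoxia (green circles) and hypoxia (purple squares), with filled symbols for an adjusted p below 0.05. In hypoxia Mdm2 and Plk3 lie furthest to the left, at -1.17 and -1.18, and Sesn2 and Fas furthest to the right, both at 0.97.

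Whether the response to hypoxia differed between the lines was tested by the interaction. It was higher in ΔN-VEGF cells for 2 of the 36 genes and lower for 1, where 2.21% and 1.15% of all tested genes were called (8.33% of the 36 in either direction, against 3.36%). With a difference of at least 2-fold, 1 was higher and 1 lower, against 0.89% and 0.672%. The response of Sesn2 was 1.27 log2 units higher in ΔN-VEGF cells (SE 0.17, adjusted p 0.0048), and that of Fdxr was 0.70 higher (SE 0.13, adjusted p 0.018). The wild-type hypoxia samples of Fdxr had 39, 40.4 and 37.2 CPM and the ΔN-VEGF ones 52.3, 48.3 and 46.5, so the order of the lines in normoxia was turned round. The response of Plk3 was lower in ΔN-VEGF cells by 1.34 (interaction -1.34, SE 0.29, adjusted p 0.033). Sesn2 was called under every alternative, while leaving out single samples lost Plk3 for 11 of the 12 samples, all but the second wild-type normoxia one, and Fdxr for 8 of the 12, at adjusted p of up to 0.11 and 0.078. The interaction of Plk3 stayed between -1.68 and -1.19 and that of Fdxr between 0.52 and 0.76 over all alternatives. The single-sample fits that lost Plk3 called 0.493% to 4.76% of all tested genes, and those that lost Fdxr 0.493% to 1.02%. Fdxr was also not called with no filter, a fit that called 1.47% of the genes it tested. Mdm4 and Mdm2 came next, with 0.62 (SE 0.21, adjusted p 0.12) and -0.63 (SE 0.22, adjusted p 0.13). Mdm4 had 37.0, 26.5 and 39.1 CPM in wild-type normoxia and 27.4, 23.4 and 25.7 in hypoxia, and in ΔN-VEGF cells 26.4, 23.4 and 25.8 in normoxia and 29.9, 25.7 and 31.1 in hypoxia. Without the second wild-type normoxia sample, 12 responses were higher and 8 lower (backgrounds 21.4% and 23.0%), among them those of Mdm2 (-0.87, adjusted p 0.00014) and Mdm4 (0.76, adjusted p 0.00060). The 5 comparisons share samples, so their values are not independent of each other.

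Kinases and modifiers that act on p53 were described from a list of 20 further genes, all tested. In wild type 1 rose and 9 fell in hypoxia (50%, against 36.5% of all tested genes), and in ΔN-VEGF cells 3 rose and 8 fell (55.0%, close to the 53.3% of all). Ppp1r13l, which encodes the p53 inhibitor iASPP, rose by 2.37 and 2.45 (adjusted p 1e-05 and 4.4e-06), from 19.5 ± 6.63 to 101 ± 14.9 CPM (SD, n = 3) in wild type. Pml, the scaffold of nuclear bodies, fell in both lines (-0.58 and -0.67, adjusted p 0.0020 and 0.00048), as did Sirt1, a deacetylase of p53 (-0.85 and -1.91, adjusted p 0.0075 and 2.4e-05, same test). Of 22 other p53 targets and family members 17 were tested, of which 7 rose and 4 fell in wild type (64.7%, against 36.5% of all) and 6 rose and 4 fell in ΔN-VEGF cells (58.8%, against 53.3%). Ccng2, an unconventional cyclin, rose by 3.35 and 3.65 (adjusted p 6.7e-05 and 2.2e-05), and Steap3, a metalloreductase of iron uptake, fell (-1.69 and -2.0, adjusted p 8.2e-05 and 1.4e-05). Between the lines, 0 of the 20 modifiers differed in normoxia, where edgeR's test called 4.36% of all genes, and 2 were higher and 3 lower in ΔN-VEGF cells in hypoxia (25.0%, against 20.1% of all). Of the 17 other targets 2 differed in normoxia (11.8%, against 4.36% of all) and 2 in hypoxia (11.8%, against 20.1%), named here after their values were seen. Trp63, a p53 relative with at most 24 counts in a sample, was higher (2.25, adjusted p 0.019) and Cd82, a tetraspanin, lower (-1.96, adjusted p 0.016) in normoxia. Sat1, an enzyme of polyamine breakdown, was higher (0.55, adjusted p 0.046) and the cytokine Lif lower (-0.85, adjusted p 0.015) in hypoxia. Leaving out the second wild-type normoxia sample, 7 modifiers were higher and 5 lower in normoxia (60.0%, against 48.9% of all genes), and 5 higher and 7 lower in hypoxia (60.0%, against 42.4%). In that fit hypoxia raised 4 and lowered 9 of them in wild type (65.0%, against 54.0%) and 3 and 9 in ΔN-VEGF cells (60.0%, against 67.1%), and it raised 10 and lowered 5 of the other targets in wild type (88.2%) and 8 and 5 in ΔN-VEGF cells (76.5%). Between the lines 4 other targets were then higher and 5 lower in normoxia (52.9%), and 1 and 6 in hypoxia (41.2%).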

How the data were processed

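RNA-seq counts of 12 samples were used. The authors sequenced 80-base single reads from TruSeq v2 libraries, trimmed and aligned them with TopHat2 2.1.0 to GRCm38.p6 (release 94), and deposited raw HTSeq 0.6.1 counts per gene; the strand setting is not given in the sources used here. Groups and replicate numbers came from the labels, which do not say whether replicates were separate cultures, so p-values measure only the spread between these samples. Tests used edgeR 4.0.16 (R 4.3.3, with limma 3.58.1 as its library): filterByExpr, TMM scaling, a model of all 12 samples with 1 mean per group, and quasi-likelihood F tests whose p-values were adjusted by Benjamini-Hochberg over 14724 genes and called below 0.05. Exon lengths and overlaps came from the GENCODE annotation of GRCm38. With 3 against 3 samples an exact permutation test of 1 gene cannot go below 0.1. Log2 CPM used a prior count of 2. SEs follow from the F statistics. In the normoxia samples, same-numbered deviations correlated at 0.36 to 0.50 between the lines (other pairs -0.46 to 0.36). The 0.50 was that of the samples numbered 2, while samples 1 and 3 correlated at 0.35 to 0.38 in any pairing. Elsewhere same-numbered deviations averaged 0.01 to 0.07. The pairing comes from the numbers in the labels alone. All 39 genes are accounted for by role; every sample is given for Trp53, Mdm2, Cdkn1a and the genes of smallest p (5 per hypoxia comparison, 4 per other comparison), and of 2 further lists the 2 of smallest p in each hypoxia comparison. The genes and lists were chosen with earlier results of these data known. Alternatives were DESeq2 1.42.0, RLE factors, total counts, other filters, other samples and a replicate block. The code was tested on simulated data.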

Additional observations from a re-analysis of the deposited data

Results flagged for a closer look

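The response to hypoxia differed between the lines for 3 p53 pathway genes by the interaction test of edgeR, which called 3.36% of all tested genes. The response in ΔN-VEGF cells minus that in wild-type cells was 1.27 on the log2 scale for Sesn2 (adjusted p 0.0048), 0.70 for Fdxr (adjusted p 0.018) and -1.34 for Plk3 (adjusted p 0.033). Sesn2 rose in both lines, Plk3 fell in both, and Fdxr was called in ΔN-VEGF cells alone. Leaving out 1 sample at a time, the call of Plk3 was lost for 11 of the 12 samples and that of Fdxr for 8, while that of Sesn2 was kept each time. The values of Plk3 (-1.68 to -1.19) and Fdxr (0.52 to 0.76) kept their direction over all alternatives. The single-sample fits that lost them called 0.493% to 4.76% and 0.493% to 1.02% of all tested genes. Fdxr was also not called with no filter, a fit that called 1.47% of the genes it tested. Single samples far from the rest of their group were not tested, since all groups have 3 samples.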

How the results depend on the processing

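Counts of p53 genes are given as higher and lower of those tested. Total counts alone gave 8 and 15 for wild-type cells in hypoxia, 8 and 16 for ΔN-VEGF cells, 1 and 2 between the lines in normoxia, 1 and 7 in hypoxia, and 2 and 3 for the interaction. For normoxia and the interaction, where the report gives no shares of all tested genes under this scaling, these were 1.21% and 2.61%, and 0.998% and 5.13%. In the same order the counts were 14 and 14, 14 and 13, 13 and 15, 15 and 9, and 13 and 10 without the normoxia samples numbered 2 of both lines, a fit added after the data were seen that called 32.8% and 32.5%, 35.4% and 36%, 27.8% and 25.8%, 27.5% and 28.3%, and 25.8% and 27.0% of all tested genes. Fits to only the groups compared gave 8 and 6, 14 and 13, 0 and 0, and 14 and 9, with no such fit for the interaction (12.8% and 11.1%, 31.9% and 35.7%, 0.0502% and 0.0574%, and 27.9% and 29.1% of all tested genes). With no filter the counts were 9 and 7, 12 and 11, 0 and 0, 4 and 2, and 1 and 1 (7.97% and 8.51%, 11.4% and 13.9%, 0.742% and 1.08%, 3.98% and 3.89%, and 0.762% and 0.712% of all). DESeq2's Wald test gave 10 and 10, 13 and 9, 2 and 4, 9 and 2, and 3 and 1 (19.7% and 20.8%, 28.7% and 26.9%, 3.14% and 6.76%, 14.1% and 11.6%, and 7.39% and 3.32% of all). A fold of at least 2 left 7 and 4, 8 and 3, 0 and 0, 0 and 2, and 1 and 1. With each sample left out in turn, rises ranged from 9 to 13 and falls from 6 to 12 for wild type, and from 11 to 14 and 5 to 13 for ΔN-VEGF cells (of all tested genes, 14.6% to 27.1%, 12.2% to 26.9%, 22.5% to 32.8% and 20.4% to 34.3%). Between the lines, 0 to 12 were higher and 0 to 14 lower in normoxia, and 2 to 13 and 2 to 5 in hypoxia (0.376% to 25.7%, 0.726% to 23.2%, 5.44% to 21.2% and 4.49% to 21.2% of all). For the interaction, 1 to 12 were higher and 0 to 8 lower (0.342% to 21.4% and 0.151% to 23.0% of all). Leaving out the second wild-type normoxia sample gave the highest of these counts; the cause was not tested.

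The replicate block on all 12 samples gave 10 and 9, 12 and 10, 2 and 1, 10 and 2, and 2 and 1 (19.7% and 18.9%, 28.0% and 27.5%, 1.55% and 2.82%, 11.6% and 10.4%, and 2.15% and 1.13% of all). With it the wild-type fall of Trp53inp2 (-1.36, adjusted p 0.069) and the hypoxic line difference of Zmat3 (0.23, adjusted p 0.051) were not called. The ΔN-VEGF falls of Trp53 and Btg2 were called, as was a wild-type fall of Xpc (-0.39, adjusted p 0.048). Between the lines in hypoxia, Apaf1 (0.34, adjusted p 0.039), Phlda3 (0.45, 0.029), Sertad1 (0.60, 0.047) and Tnfrsf10b (0.31, 0.042) were called as well. On the 6 normoxia samples alone, added after seeing the data, the block gave 0 and 0 (0.00718% and 0.0% of all). Of 54 calls of a gene in a comparison, 30 were made in the same direction under every alternative run for them: 14 of 19 for hypoxia in wild type, 12 of 20 for ΔN-VEGF cells, 0 of 3 and 3 of 9 between the lines in normoxia and hypoxia, and 1 of 3 for the interaction (Sesn2). The value of Ddb2 for hypoxia in wild type ranged from -0.37 (without the second wild-type normoxia sample) to 0.28 with each sample left out in turn, and was -0.37 without both samples numbered 2. In 111 further instances a value changed sign without being called either time. Genes at few counts, such as Gdf15, could not be compared at this depth.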
